A study of Mus musculus with 53 samples.

Results

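Ppara, Pparg, Cpt1a, Acadm, Acadl, Ehhadh, Pdk4 and Angptl4 are 8 genes of PPAR-regulated lipid use, chosen by symbol from the 55421 genes of a raw count table, and all 8 had enough reads to be tested in each of 9 comparisons. They cover 2 nuclear receptors, 4 enzymes of fatty acid oxidation, 1 kinase that limits glucose oxidation and 1 secreted inhibitor of lipoprotein lipase. None of the 8 makes ketone bodies, so ketone body enzymes are described from a separate list.

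RNA was sequenced from whole tissue of mouse proximal colon and small intestine, in 53 libraries of 11 groups. All groups, WT included, carried VilCreER, a tamoxifen-inducible Cre driven by the Villin promoter and so active in intestinal epithelium, while the sequenced tissue also held stroma and immune cells. BA mice (BrafV600E/+ Alk5fl/fl) express oncogenic BRAF and lose the TGFβ receptor ALK5 (gene Tgfbr1), and A mice (Alk5fl/fl) lose ALK5 alone. The study addressed right-sided colon tumours that arise from these alleles, with Apc-deficient tissue as a Wnt-driven comparison, in adult males and females.

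From the proximal colon came endpoint BA tumours (n = 4), WT tissue with no day given (n = 3), and tissue taken 30 days after induction (d30) from WT (n = 4), A (n = 4), A given sulindac (n = 4), BA (n = 5) and BA given antibiotics (n = 5). Sulindac, a cyclooxygenase inhibitor, was in the drinking water at 0.4 g/L for the first 14 days. The antibiotics were ampicillin at 1 g/L, neomycin trisulphate at 1 g/L, vancomycin at 500 mg/L and metronidazole at 1 g/L, also in the water from the day after tamoxifen. From the small intestine came Apcfl/fl tissue (n = 10) and WT tissue (n = 6) at day 4, Apcfl/+ tumours (n = 5) and WT tissue with no day given (n = 3). The latter pair is labelled as inbred C57BL6/J (N9/99.8%), and all other groups as mixed C57BL/6J N6.

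PPARα (Ppara) and PPARγ (Pparg) are receptors that bind fatty acids and their derivatives, pair with RXR and switch on genes of lipid uptake, storage and burning. CPT1A loads long-chain fatty acids onto carnitine so that they can enter mitochondria, where acyl-CoA dehydrogenases such as ACADM and ACADL take the first step of beta-oxidation, and EHHADH carries out middle steps of the peroxisomal pathway. PDK4 inhibits pyruvate dehydrogenase and so favours fat over glucose as fuel, and ANGPTL4, a classical PPAR target, blocks lipoprotein lipase. In the colon, epithelial cells burn butyrate made by bacteria, and in the small intestine enterocytes absorb dietary fat.

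Promoter sequence is shown for 2 members that hold a receptor half-site near a RefSeq transcript start, Acadm and Cpt1a, and for 2 that hold none and were called lower in BA tumours, Ehhadh and Pdk4. Pparg, which holds the half-site, and Ppara, which does not, were also called lower there and are not printed. The choice is not a test of half-sites against levels. PPAR and RXR bind as a pair to a direct repeat of the half-site AGGTCA with 1 base between the copies. The sequences are from RefSeq on GRCm38.p6 and run 5′ to 3′ on the strand of the gene. They end at or before the start of a RefSeq transcript, which for Cpt1a lies within the gene positions given below. Capitals mark the half-site, here as its reverse complement TGACCT.
Acadm, chr3:153944644-153944893, minus strand: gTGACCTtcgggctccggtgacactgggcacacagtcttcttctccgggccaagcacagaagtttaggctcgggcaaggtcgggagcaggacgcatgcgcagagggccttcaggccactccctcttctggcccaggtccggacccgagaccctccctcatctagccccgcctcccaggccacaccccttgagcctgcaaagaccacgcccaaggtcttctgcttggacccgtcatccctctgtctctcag
Cpt1a, chr19:3323051-3323284, plus strand: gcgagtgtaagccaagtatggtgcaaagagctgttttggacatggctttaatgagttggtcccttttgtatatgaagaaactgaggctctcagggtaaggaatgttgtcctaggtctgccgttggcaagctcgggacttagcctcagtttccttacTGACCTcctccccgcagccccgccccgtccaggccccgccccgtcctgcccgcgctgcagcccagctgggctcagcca
Ehhadh, chr16:21787835-21788084, minus strand: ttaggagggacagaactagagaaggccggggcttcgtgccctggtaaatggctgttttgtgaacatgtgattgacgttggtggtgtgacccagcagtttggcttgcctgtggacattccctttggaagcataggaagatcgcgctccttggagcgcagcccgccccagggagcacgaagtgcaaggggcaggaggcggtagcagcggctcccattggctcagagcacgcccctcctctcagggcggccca
Pdk4, chr6:5496310-5496528, minus strand: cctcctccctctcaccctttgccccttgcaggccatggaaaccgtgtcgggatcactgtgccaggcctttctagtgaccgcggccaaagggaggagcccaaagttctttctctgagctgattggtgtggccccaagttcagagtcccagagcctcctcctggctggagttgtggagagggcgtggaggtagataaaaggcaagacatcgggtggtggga
RefSeq windows of 300 bases, 250 before a start and 50 after it, were at hand for 7 members, 9 windows in all. The half-site on either strand lay in windows of 3 members, 249 bases before the start in Acadm, 94 bases before it in Cpt1a, and 28 and 9 bases before 2 starts of Pparg. Of 32851 windows of this length over all genes, 16.3% held the half-site and 0.0396% (13 windows) the full repeat, which no window of a member held. These matches are letters in a window only, not binding sites.

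Libraries held 10005066 to 32824795 reads on genes, except Apcfl/fl day 4 library 1 with 516985. Normalised CPM are counts scaled to the library total by TMM over all 53 libraries, and 3 reads amount to 0.16 CPM at the median total of the BA tumours. The Y-linked gene Ddx3y passed 10 CPM in 3 of 4 BA tumours, all but tumour 1, and in 0 of 3 WT proximal colons. Between these 2 groups, only tumour 1 separates its level from the genotype. Ddx3y also passed 10 CPM in 1 of 5 Apcfl/+ tumours and 3 of 3 of their WT, and in all d30 libraries. Gm13394 was over 10 CPM in 0 of 4 d30 WT libraries and in all other d30 libraries, and in 0 of 5 Apcfl/+ tumours and 3 of 3 of their WT, so that in those comparisons with WT its level and the genotype cannot be told apart. It was over 10 CPM in 3 of 4 BA tumours and 0 of 3 of their WT. BA antibiotics library 3 held adipocyte markers at a summed 1346 CPM, against 5.11 to 19.5 CPM in untreated d30 BA. Small intestinal enterocyte markers summed to 74.6 CPM in Apcfl/+ tumour 2, against 5799 to 9572 CPM in the other 4. Whole-gene counts do not check the induced deletions, which remove part of a gene in epithelium only, and Tgfbr1 was 91.5 to 172 CPM in BA tumours against 49.4 to 55.9 in WT proximal colon. In whole tissue, fewer cells of a type and less RNA per cell cannot be told apart.

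Endpoint BA tumours had lower levels of both receptors, of the oxidation enzyme Ehhadh and of the kinase Pdk4 than WT tissue. With a threshold of 0.05 on the adjusted p, 4 of 8 members were lower and 0 higher, where 13.2% of all genes tested were called in either direction. With the replicate block 2 members were called in BA tumours, and the call of Pparg was kept in 1 of 7 fits without 1 library. Ddx3y passed 10 CPM in 3 of 4 BA tumours and 0 of 3 of their WT, so only tumour 1 separates its level from the genotype. With a term for Ddx3y, the log2 fold changes of these 4 members were nearer to 0, as given further on. In d30 BA against d30 WT, 3 were lower and 1 higher, against 55.1% of all genes. In Apcfl/fl small intestine at day 4, 5 were lower and 1 higher, against 54.2%, and in Apcfl/+ tumours 2 were lower and 2 higher, against 61.5%. With antibiotics, 4 members were lower and 0 higher than in untreated d30 BA, against 13% of all genes. In d30 BA against d30 A, 2 were lower and 0 higher, against 45.3%. The share of members called was below that of all genes in d30 BA against either control and in Apcfl/+ tumours, so the counts there are not a result about the members. Ranges did not overlap for 6 of 8 members in BA tumours, against 27.5% of all genes tested. The figures were 4 and 45.4% in d30 BA against WT, 1 and 36.1% against A, and 3 and 10.7% with antibiotics. In Apcfl/fl at day 4 they were 2 and 16.8%, and in Apcfl/+ tumours 3 and 59.2%. In d30 BA against either control and in Apcfl/+ tumours, a lack of overlap is therefore not a result about the members.

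**Figure D1:**
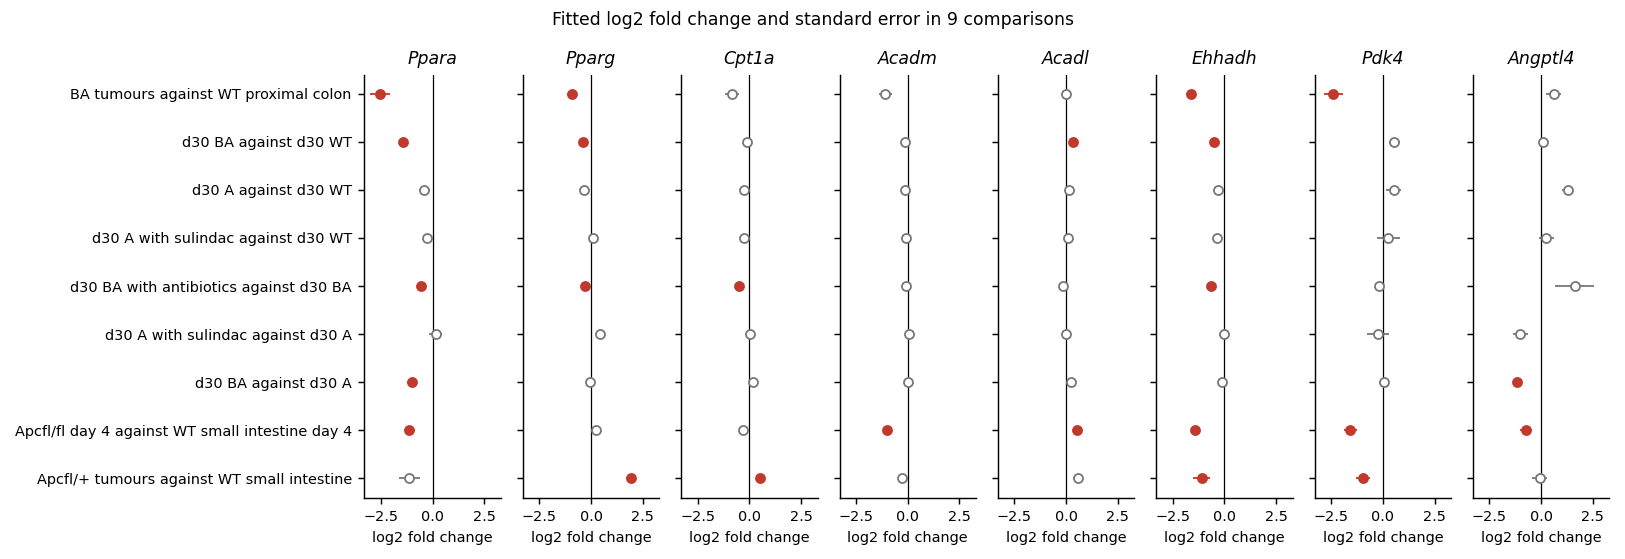
Each panel is 1 gene and each row 1 comparison. Points give the edgeR log2 fold change, bars its standard error, and filled red points an adjusted p under 0.05. Ppara lies left of 0 in all comparisons except A with sulindac against A, and Pparg lies left of 0 in BA tumours and far right of 0 in Apcfl/+ tumours.

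No member was called by the quasi-likelihood test of edgeR in d30 A against d30 WT, where 0.141% of all genes were, in d30 A with sulindac against d30 WT (0.0507%) or in d30 A with sulindac against d30 A (0%). At an unadjusted p under 0.05, 2, 1 and 2 members passed in these comparisons. Ranges did not overlap for 2, 0 and 2 of 8 members, against 4.69%, 5.11% and 1.8% of all genes tested. The DESeq2 Wald test called 1, 0 and 0 members, and limma with voom called 0 in each. Members below the threshold are given by their values.

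Ppara (ENSMUSG00000022383, chromosome 15, 85734983 to 85802819 in GRCm38, as are all positions of genes) encodes the receptor that drives fatty acid oxidation in liver and gut. Its level was 13.8, 3.76, 4.76 and 2.75 normalised CPM in BA tumours 1 to 4 and 37.7, 32.1 and 38.1 in WT proximal colon. All tumours lay below all WT libraries, tumour 1 the nearest to them. Tumour 1 was the only tumour with Ddx3y under 10 CPM, as it was in all WT proximal colons. It was also the highest tumour for Ehhadh and Pdk4, but not for Pparg. Ppara was 5.88-fold lower, a log2 fold change of -2.56 ± 0.48 (SE, adjusted p = 0.0104). At d30 it was 7.42, 7.82, 7.21, 9.53 and 8.54 in BA and 21, 18.2, 23 and 23.9 in WT, again without overlap, with a log2 fold change of -1.42 ± 0.11 (SE, adjusted p = 1.89e-06).

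In d30 A, Ppara was split, at 8.92, 12.1, 23 and 21 CPM, with 2 libraries inside the WT range and 2 below it, and the log2 fold change was -0.40 ± 0.26 (SE, adjusted p = 0.572). The 4 A libraries with sulindac held 19.9, 15.8, 11.7 and 23.9, overlapping both. BA tissue was lower than A tissue at d30, with a log2 fold change of -1.00 ± 0.26 (SE, adjusted p = 0.00868), although the lowest A library lay within the range of BA. With antibiotics, d30 BA libraries held 5.15, 5.39, 4.45, 7.31 and 5.3 CPM, a log2 fold change of -0.55 ± 0.14 (SE, adjusted p = 0.0266) against untreated BA. Antibiotics library 4 overlapped untreated BA, and the call was lost without any 1 of BA libraries 2, 4 and 5 and of antibiotics libraries 2 and 5, with adjusted p-values of 0.0503 to 0.0693. It was also lost with all 5 d30 groups in 1 fit (adjusted p = 0.145) and without a filter on low counts (adjusted p = 0.0523).

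In the small intestine at day 4, Ppara ran from 4.36 to 15.9 with a median of 12.1 CPM in Apcfl/fl and from 9.1 to 34.7 with a median of 28 in WT, with overlap at WT library 5, and it was 2.18-fold lower, a log2 fold change of -1.13 ± 0.28 (SE, adjusted p = 0.00243). Among libraries with Gm13394 over 10 CPM it was -1.12 (adjusted p = 0.0615). In Apcfl/+ tumours it was 19.3, 4.36, 36, 21.1 and 26 against 60.9, 33.4 and 56 in WT small intestine. The ranges touched, since tumour 3 was above 1 WT library, and the log2 fold change of -1.12 ± 0.51 (SE, adjusted p = 0.0844) did not pass. Without tumour 2, the library with few enterocyte marker reads, it was -0.86 (adjusted p = 0.0141). Over the 11 groups the mean was highest in WT small intestine, 50.1 ± 14.7 (SD, n = 3), and lowest in BA with antibiotics, 5.52 ± 1.07 (SD, n = 5), and every pair of neighbours in the order overlapped.

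Pparg (ENSMUSG00000000440, chromosome 6, 115360951 to 115490399), the receptor known for fat cell formation, is also abundant in colon epithelium. It was a colon gene here, with a mean of 155 ± 33.6 (SD, n = 3) normalised CPM in WT proximal colon and 10.3 ± 3.11 (SD, n = 3) in WT small intestine, groups that were not tested against each other. BA tumours held 90.8, 53.7, 91.6 and 99.8 CPM and WT proximal colon 154, 189 and 122, with no overlap and tumour 2 the lowest. The log2 fold change was -0.91 ± 0.25 (SE, adjusted p = 0.0442), close to the threshold, and the call was lost in 6 of 7 fits that left out 1 library, all but the fit without tumour 2.

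At d30 Pparg was 121, 126, 119, 126 and 115 in BA and 178, 164, 139.9 and 156 in WT, a log2 fold change of -0.40 ± 0.07 (SE, adjusted p = 0.00071) with no overlap. A tissue, at 116, 120.5, 128 and 139, also lay below all WT libraries by a narrow margin, but its log2 fold change of -0.33 ± 0.11 (SE, adjusted p = 0.48) did not pass (unadjusted p = 0.0141). A with sulindac was at 182, 148, 168 and 173, above every untreated A library, with a log2 fold change against A of 0.42 ± 0.13 (SE, adjusted p = 1) and an unadjusted p of 0.00948. BA and A overlapped at d30, with a log2 fold change of -0.04 ± 0.09 (SE, adjusted p = 0.734). Antibiotics gave 109, 100.2, 86.6, 95.7 and 98.9 CPM, below every untreated BA library, a log2 fold change of -0.30 ± 0.05 (SE, adjusted p = 0.00442).

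The direction turned in the small intestine. Apcfl/+ tumours held 29.6, 31.2, 35, 42.6 and 44.9 CPM and their WT 13.7, 7.52 and 9.65. Every tumour was above every WT library, Pparg was 3.83-fold higher and the log2 fold change was 1.94 ± 0.23 (SE, adjusted p = 0.00019), kept in every fit without 1 library at 1.77 to 2.20. At day 4, Apcfl/fl tissue ran from 12.2 to 24.5 with a median of 18.1 and WT from 9.28 to 20.3 with a median of 16.9, with overlap and a log2 fold change of 0.23 ± 0.17 (SE, adjusted p = 0.264). In the order of the 11 means, from A with sulindac at 168 ± 14.5 (SD, n = 4) to WT small intestine, neighbours were apart at 3 places, between d30 BA and BA with antibiotics, between BA tumours and Apcfl/+ tumours and between Apcfl/+ tumours and Apcfl/fl day 4. Reads of Gm44079, on the other strand within Pparg, may be counted in it or it in them, since the strand setting is not stated.

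**Figure D2:**
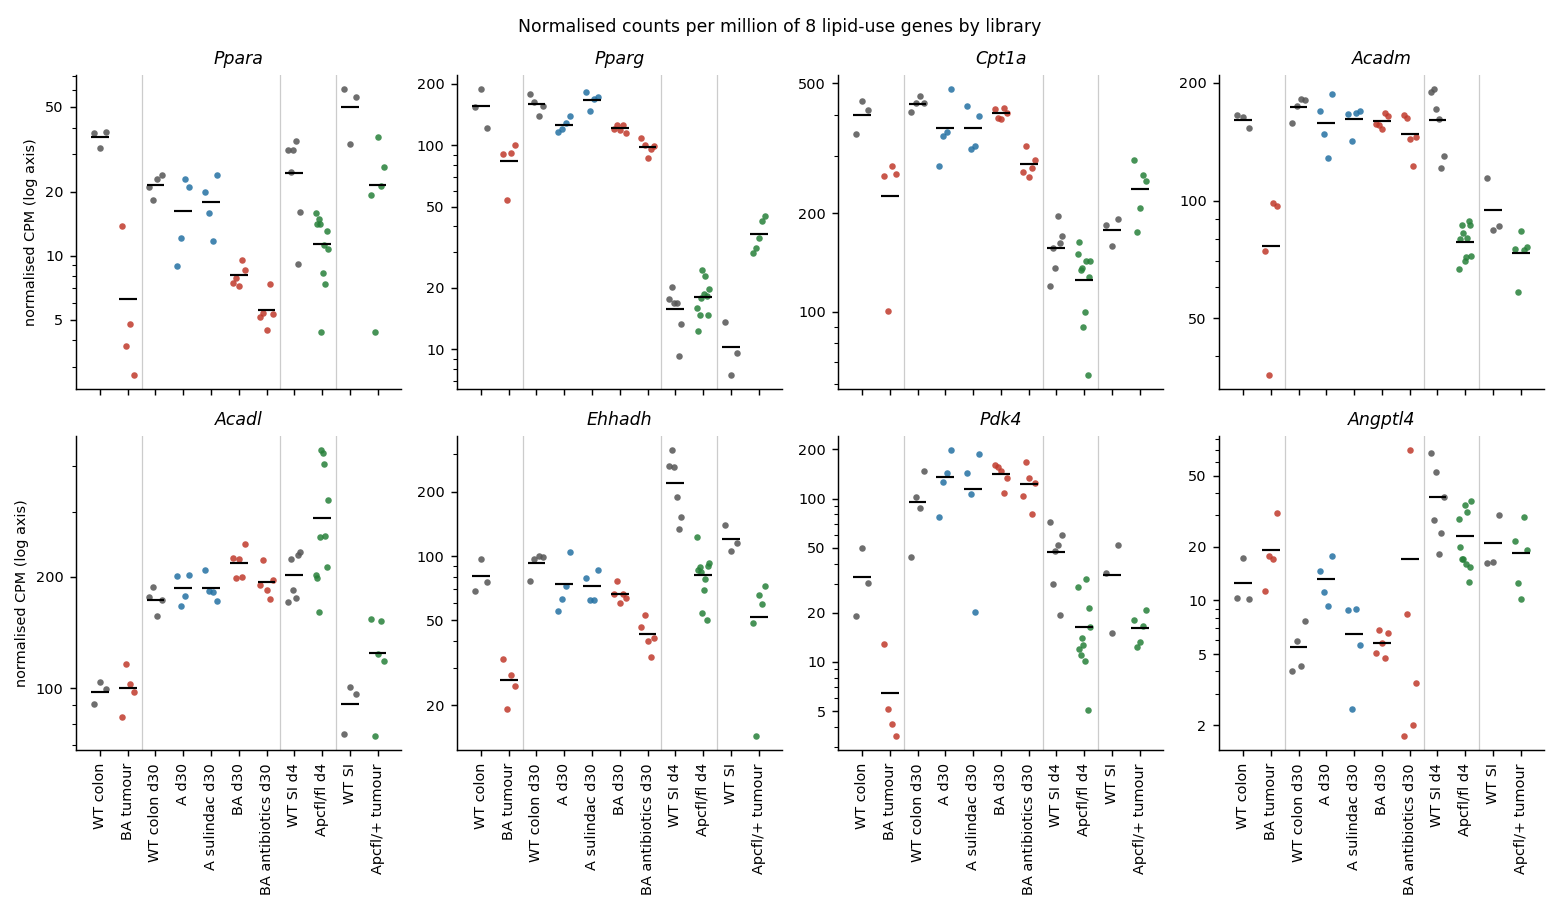
Each panel is 1 gene, each point 1 library and each bar the mean of a group, in normalised CPM on a log axis. Grey is WT, blue A, red BA and green Apc, and vertical lines separate groups that do not share a WT. Ppara is low in all 3 BA groups, Pparg is low throughout the small intestine, and Angptl4 has 1 library at 69.5 CPM among the BA libraries with antibiotics.

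Cpt1a (ENSMUSG00000024900, chromosome 19, 3322334 to 3385733) controls the entry of long-chain fatty acids into mitochondria. Its level was 261, 100.5, 279.6 and 265 CPM in BA tumours and 349, 439.9 and 414 in WT proximal colon. All tumours were below all WT libraries, but tumour 2 was far below the other 3 and also held small intestinal enterocyte markers at a summed 1653 CPM against 198 to 215 in them, and the log2 fold change of -0.85 ± 0.34 (SE, adjusted p = 0.142) did not pass. At d30, BA tissue was at 417, 391, 388, 420.3 and 405 and WT at 407, 436, 456 and 434, overlapping, with a log2 fold change of -0.11 ± 0.06 (SE, adjusted p = 0.139). With antibiotics it was 268, 322, 258, 276 and 290.2, below every untreated BA library, 1.42-fold lower and at a log2 fold change of -0.51 ± 0.06 (SE, adjusted p = 0.000708). This call held in all 10 fits without 1 library, at -0.56 to -0.48.

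A tissue, at 278 to 481 CPM, and A with sulindac, at 315 to 426, overlapped WT. In Apcfl/+ tumours Cpt1a was 292, 175, 207, 262 and 251 against 184, 159 and 192 in WT, where tumour 2 fell inside the WT range, and it rose with a log2 fold change of 0.52 ± 0.17 (SE, adjusted p = 0.0294). That call was lost in 6 of 8 fits without 1 library and held in those without tumour 2 or tumour 3, over a range of 0.42 to 0.61. At day 4 it ran from 64.2 to 164 with a median of 135 in Apcfl/fl and from 119.8 to 196 with a median of 159.7 in WT, a log2 fold change of -0.32 ± 0.17 (SE, adjusted p = 0.113). All neighbouring groups in the order of means, from d30 WT colon at 433 ± 20.1 (SD, n = 4) to Apcfl/fl day 4 at 125 ± 30.8 (SD, n = 10), overlapped.

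Acadm (ENSMUSG00000062908, chromosome 3, 153922357 to 153944632) encodes the medium-chain acyl-CoA dehydrogenase. BA tumours held 74.3, 35.9, 98.7 and 97.2 CPM and WT proximal colon 165, 164 and 153, with no overlap. The log2 fold change of -1.09 ± 0.32 (SE, adjusted p = 0.0532) narrowly missed the threshold, and it passed without tumour 2, at -0.87 (adjusted p = 0.0141). In the 5 d30 groups Acadm stayed between 123 and 188 CPM in all 22 libraries, and no d30 comparison called it. In the small intestine at day 4 it ran from 66.9 to 88.9 with a median of 80.2 in Apcfl/fl and from 121 to 193 with a median of 167 in WT. The groups did not overlap, and Acadm was 2.0-fold lower, with a log2 fold change of -1.00 ± 0.11 (SE, adjusted p = 2.83e-06). Apcfl/+ tumours held 75.5, 58.3, 83.6, 74.8 and 76 and their WT 114, 84 and 86.1, a log2 fold change of -0.26 ± 0.14 (SE, adjusted p = 0.137) that did not pass although the ranges were just apart. Means fell into a higher set of 7 groups, down to BA with antibiotics at 148 ± 17.1 (SD, n = 5), and a lower set from WT small intestine at 94.8 ± 17 (SD, n = 3), and neighbours overlapped within both sets.

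Acadl (ENSMUSG00000026003, chromosome 1, 66830839 to 66863277), the long-chain acyl-CoA dehydrogenase, was the only member whose log2 fold change in BA tumours was near 0, at 0.02 ± 0.19 (SE, adjusted p = 0.962). Its level was 83.7, 116, 102 and 97.4 in the tumours and 90.3, 104 and 99.5 in WT proximal colon, overlapping throughout. At d30 it was higher in BA, at 226, 199, 223, 200.3 and 245, than in WT, at 177, 187, 157 and 173, with no overlap and a log2 fold change of 0.32 ± 0.08 (SE, adjusted p = 0.00493). Against d30 A, Acadl in BA overlapped, with a log2 fold change of 0.24 ± 0.10 (SE, adjusted p = 0.0699) that did not pass. It was also higher in Apcfl/fl at day 4, running from 161 to 440.1 with a median of 257 against from 170.5 to 234 with a median of 204 in WT, with wide overlap and a log2 fold change of 0.53 ± 0.21 (SE, adjusted p = 0.0373). Libraries 5 to 7 of Apcfl/fl were the highest, at 403 to 440.1 CPM, and the call was lost under several other settings. Among libraries with Gm13394 under 10 CPM the difference was 0.15 (adjusted p = 0.446) and among those over it 0.68 (adjusted p = 0.0588). The adjusted p was 0.0542 with voom, 0.066 without a filter and 0.0638 with the replicate block. Apcfl/+ tumours held 154, 74.2, 124, 152 and 118 and WT 75.3, 101 and 96.1, a log2 fold change of 0.56 ± 0.23 (SE, adjusted p = 0.0643), or 0.70 (adjusted p = 0.00183) without tumour 2. Acadl overlaps Gm15793 on its own strand and Gm27934 on the other, whose reads could be counted with it.

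Ehhadh (ENSMUSG00000022853, chromosome 16, 21761287 to 21787807), the peroxisomal bifunctional enzyme, was lower in every disease group with a call. BA tumours held 32.9, 19.1, 27.8 and 24.5 CPM and WT proximal colon 68.8, 96.4 and 75.6. The groups were well apart, Ehhadh was 3.12-fold lower, and the log2 fold change of -1.64 ± 0.21 (SE, adjusted p = 0.00289) passed in all 7 fits without 1 library, at -1.74 to -1.51. At d30 it was 66.6, 76.3, 60.1, 66.1 and 63.4 in BA and 76.4, 96.9, 100.1 and 98.8 in WT, with BA library 2 just below WT library 1, and a log2 fold change of -0.50 ± 0.10 (SE, adjusted p = 0.00119). Against d30 A, BA tissue overlapped, with a log2 fold change of -0.14 ± 0.17 (SE, adjusted p = 0.53) that did not pass. Antibiotics gave 46.6, 53.1, 39.9, 33.8 and 41.2, below every untreated BA library, with a log2 fold change of -0.63 ± 0.11 (SE, adjusted p = 0.00419). A tissue ran from 55.2 to 104 and A with sulindac from 61.9 to 85.7, and neither was called against WT, with log2 fold changes of -0.33 and -0.36.

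In the small intestine Ehhadh ran from 50.1 to 123 with a median of 84.9 in Apcfl/fl at day 4 and from 134 to 313 with a median of 226 in WT, without overlap, a log2 fold change of -1.41 ± 0.19 (SE, adjusted p = 1.55e-05). In Apcfl/+ tumours it was 48.5, 14.3, 65.4, 59.5 and 72.6 against 140.4, 106 and 115. All tumours were below all WT libraries, tumour 2 the lowest, and the log2 fold change was -1.10 ± 0.41 (SE, adjusted p = 0.0427). The call was lost without any WT library or without tumour 1 or 4, and held without tumour 2 at -0.86 (adjusted p = 0.000675). Small intestinal enterocyte markers moved with Ehhadh in both comparisons, at 4478 to 12290 summed CPM in Apcfl/fl and 22010 to 36970 in WT at day 4, and 74.6 to 9572 in Apcfl/+ tumours and 17710 to 26810 in WT. Of the 8 markers, 8 were lower at day 4 and 4 in Apcfl/+ tumours, and their part in the result was not tested. WT small intestine at day 4 had the highest mean, 219 ± 71.2 (SD, n = 6), and BA tumours, at 26.1 ± 5.78 (SD, n = 4), were apart from the group above them. Gm24898 lies on the other strand within Ehhadh, and its reads could be counted with it.

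Pdk4 (ENSMUSG00000019577, chromosome 6, 5483351 to 5496309), the kinase that holds back pyruvate oxidation, had its lowest mean in BA tumours. They held 12.8, 5.16, 4.19 and 3.52 CPM against 19, 50.1 and 30.48 in WT proximal colon. Tumour 1, the only tumour with Ddx3y under 10 CPM, was the nearest to WT. No tumour reached the WT range, which itself was wide, and Pdk4 was 5.27-fold lower, with a log2 fold change of -2.40 ± 0.47 (SE, adjusted p = 0.0124) that passed in all 7 fits without 1 library, at -2.94 to -2.00. At d30 there was no such gap, with 159.8, 157, 147, 108 and 133 in BA and 43.6, 103, 88.1 and 147 in WT. These overlapped, and the log2 fold change was 0.55 ± 0.27 (SE, adjusted p = 0.1). A tissue held 77.3, 126, 144 and 198 and A with sulindac 144, 107, 20.1 and 187, where sulindac library 3 was far below the other 3, and no comparison of A called Pdk4. Antibiotics, at 81 to 167, overlapped untreated BA.

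In Apcfl/fl tissue at day 4 Pdk4 ran from 5.12 to 32.1 with a median of 13.3 CPM and in WT from 19.4 to 72.2 with a median of 49.97. The ranges overlapped at their edges, and Pdk4 was 2.98-fold lower with a log2 fold change of -1.58 ± 0.32 (SE, adjusted p = 0.000491). Apcfl/+ tumours held 18, 12.4, 13.3, 16.7 and 20.8 and their WT 34.8, 15 and 51.8, where WT library 2 fell among the tumours. The log2 fold change was -0.96 ± 0.34 (SE, adjusted p = 0.0362), lost in 5 of 8 fits without 1 library, at -1.30 to -0.50. A term for Ddx3y over 10 CPM left it at -0.80 (adjusted p = 0.322) and Ehhadh in the same comparison at -1.20 (adjusted p = 0.241). All neighbours in the order of the 11 means overlapped, from d30 BA at 141 ± 21.4 (SD, n = 5) to BA tumours at 6.42 ± 4.31 (SD, n = 4).

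Angptl4 (ENSMUSG00000002289, chromosome 17, 33773750 to 33781830), the lipase inhibitor, had no call in either BA comparison with WT. BA tumours held 11.3, 17.8, 17.1 and 30.9 CPM and WT proximal colon 10.3, 17.3 and 10.2, overlapping, with a log2 fold change of 0.60 ± 0.36 (SE, adjusted p = 0.316). At d30 it was 4, 5.92, 4.27 and 7.68 in WT, 14.5, 11.2, 9.26 and 17.8 in A and 5.06, 6.84, 5.8, 4.76 and 6.6 in BA. Every A library was above every WT and BA library. The log2 fold change of A against WT, 1.28 ± 0.26 (SE, adjusted p = 0.204), missed the threshold over all genes despite an unadjusted p of 0.000507, and it passed by the DESeq2 Wald test, at 1.28 (adjusted p = 0.00109), and without a filter on low counts, at 1.27 (adjusted p = 0.0154). BA against A was called, 2.24-fold lower at a log2 fold change of -1.16 ± 0.20 (SE, adjusted p = 0.000728), and BA against WT was not, at 0.08 ± 0.20 (SE, adjusted p = 0.774). With all 5 d30 groups in 1 fit, the difference between BA and A was -1.20 (adjusted p = 0.198).

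With sulindac, A tissue held 8.82, 2.47, 8.98 and 5.6 CPM, below every untreated A library, with a log2 fold change of -1.02 ± 0.36 (SE, adjusted p = 1) and an unadjusted p of 0.0178. Against WT the same libraries differed by 0.25 ± 0.38 (SE, adjusted p = 0.835) and overlapped. BA with antibiotics held 1.74, 8.39, 69.5, 2.02 and 3.45 CPM, and library 3 alone set the mean. The log2 fold change against untreated BA was 1.62 ± 0.93 (SE, adjusted p = 0.255) with library 3 and -0.60 (adjusted p = 0.327) without it, so the direction rested on 1 library. That library also held Adipoq, made by fat cells, at 210.0 CPM, against 0, 0.614, 0 and 0 in the other 4, and fibroblast markers at a summed 8553 CPM, against 1349 to 1866 in those 4. Adipocyte markers also reached 115 and 73.2 summed CPM in A libraries 1 and 2, 27.1 and 21.4 in A libraries 3 and 4, and 22 to 124 in WT. Their part in the levels of Angptl4 was not tested.

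**Figure D3:**
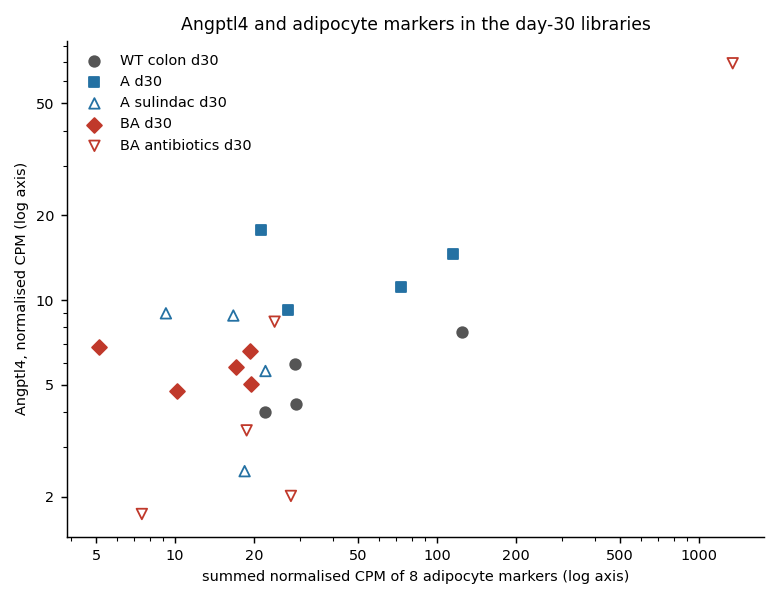
Points are the 22 day-30 libraries, with the summed normalised CPM of 8 adipocyte markers across and Angptl4 upward, both on log axes. One BA library with antibiotics stands alone at 1346 and 69.5 CPM, and the 4 A libraries lie above the WT and untreated BA libraries over a span of adipocyte marker levels.

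In the small intestine at day 4, Angptl4 ran from 12.7 to 36.3 with a median of 18.5 CPM in Apcfl/fl and from 18.3 to 67.1 with a median of 33.1 in WT, with wide overlap and a log2 fold change of -0.73 ± 0.28 (SE, adjusted p = 0.0335). Adipocyte markers summed to 0 to 23.9 CPM in Apcfl/fl and 3.61 to 76.5 in WT, and their part in the result was not tested. With a term for Gm13394 over 10 CPM the difference was -0.67 (adjusted p = 0.0644). Among libraries with Gm13394 over 10 CPM the log2 fold change was -0.16 (adjusted p = 0.772). Apcfl/+ tumours, at 10.2 to 29.4, overlapped WT, at 16.3 to 30.08, with a log2 fold change of -0.07 ± 0.36 (SE, adjusted p = 0.875).

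Between genes, levels are compared per kilobase of exon. In WT proximal colon the normalised CPM per kilobase was 52.5 ± 11.4 (SD, n = 3) for Pparg, 52.5 ± 6.16 for Cpt1a, 48.8 ± 3.41 for Acadl, 41 ± 1.71 for Acadm and 26.9 ± 4.83 for Ehhadh. Pdk4, Ppara and Angptl4 were the lowest 3 there, at 9.46 ± 4.48, 9.38 ± 0.869 and 3.56 ± 1.16. In WT small intestine Ppara, at 13.1 ± 3.82, was above Pparg, at 3.48 ± 1.05, and in Apcfl/+ tumours Pparg, at 12.4 ± 2.31, was above Ppara, at 5.57 ± 3. In BA tumours Pparg stood at 28.4 ± 6.98 and Ppara at 1.63 ± 1.33. These are descriptions of levels, with no test between genes.

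The effect in each tumour or stage was then set against another by an interaction term, each effect taken against its own WT. Between BA tumours and Apcfl/+ tumours, 2 of 8 members differed, where 39.7% of all genes did. Pparg, lower in one and higher in the other, differed by -2.81 ± 0.35 (SE, adjusted p = 0.000105) on the log2 scale, and Cpt1a by -1.32 ± 0.39 (SE, adjusted p = 0.0169). Genotype, tissue, strain background, Gm13394 level and Ddx3y level changed together between these models and cannot be told apart. The other 6 members had differences from -1.39 to 0.70 that did not pass.

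Between the endpoint and d30 effects of BA, 3 of 8 members differed, where 16.3% of all genes did, and each was lower at endpoint. The differences were -2.92 ± 0.57 (SE, adjusted p = 0.00303) for Pdk4, -1.14 ± 0.22 (SE, adjusted p = 0.00292) for Ehhadh and -0.95 ± 0.30 (SE, adjusted p = 0.04) for Acadm. For Ppara, lower at both stages, the difference of -1.10 ± 0.49 (SE, adjusted p = 0.141) did not pass. The WT groups of the stages differed in level too, Pdk4 standing at 33.2 ± 15.7 (SD, n = 3) in WT proximal colon and 95.4 ± 42.6 (SD, n = 4) in d30 WT, and Acadl at 97.8 ± 6.83 (SD, n = 3) and 173 ± 12.7 (SD, n = 4). Ddx3y was over 10 CPM in 3 of 4 BA tumours and 0 of 3 of their WT, but in all d30 libraries. Its part in the differences between stages was not tested. Between the Apcfl/+ tumour and Apcfl/fl day 4 effects, 3 of 8 differed, where 24.7% of all genes did, each with the higher effect in the tumours. The differences were 1.69 ± 0.30 (SE, adjusted p = 0.000412) for Pparg, 0.80 ± 0.27 (SE, adjusted p = 0.0322) for Cpt1a and 0.72 ± 0.20 (SE, adjusted p = 0.013) for Acadm. The call of Cpt1a there was lost under RLE scaling (adjusted p = 0.0785), with DESeq2 (0.0574) and without a filter on low counts (0.1), and held with voom (0.0246). RLE scaling moved the median log2 value of all genes in that contrast from -0.0187 to -0.158. Acadm itself stood at 73.6 ± 9.3 (SD, n = 5) CPM in the tumours and 78.6 ± 7.84 (SD, n = 10) in Apcfl/fl. Its WT levels were 94.8 ± 17 (SD, n = 3) and 161 ± 30 (SD, n = 6). Stage, Apc genotype, strain background, Gm13394 and Ddx3y also changed between these effects and cannot be told apart. At day 4, Gm13394 was over 10 CPM in 6 of 10 Apcfl/fl and 3 of 6 WT libraries, and Ddx3y in 4 of 10 and 4 of 6.

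Genes of the same pathways, from lists of 61 genes in all, are given by their counts. In BA tumours, 25 of 59 tested were lower and 2 higher, where 5.71% and 7.46% of all genes were, with a median log2 fold change of -0.816, against 0.029 for all genes tested. Fewer were called with the replicate block, and nearly all calls were lost with a term for Ddx3y over 10 CPM, as counted in the closing section. In the fit with that term, only tumour 1 of the BA tumours was under 10 CPM. Of 13 enzymes of mitochondrial beta-oxidation, 12 were lower, from Acaa2, the last thiolase of the cycle, at -1.68 (adjusted p = 0.00329) to Echs1, an enoyl-CoA hydratase, at -0.87 (adjusted p = 0.0244). Of 5 ketone body genes, 4 were lower. In the carnitine shuttle 2 of 6 were lower, Cpt2 at -1.33 (adjusted p = 0.00421) and Slc25a20 at -1.29 (adjusted p = 0.0317), and in the peroxisome 3 of 7, Acaa1b the most at -2.23 (adjusted p = 0.0179). The 2 higher genes were Acsl4, which activates arachidonate, at 1.35 (adjusted p = 0.0049), and Creb3l3, a transcription factor of lipid metabolism, at 2.06 (adjusted p = 0.0119).

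Several other features moved with these losses, where 5.71% of all genes were called lower and 7.46% higher. Surface colonocyte markers summed to 2137 to 6181 CPM in BA tumours and 14830 to 27800 in WT, with 3 of 8 lower, and fibroblast markers to 4819 to 5793 and 1709 to 2910, with 2 of 8 higher. Adipocyte markers summed to 10.2 to 17.3 and 55 to 147, with Adipoq at 0 in all tumours, neutrophil markers to 22.8 to 99 and 3.97 to 6.52, with 7 of 7 tested higher, and macrophage markers to 439 to 1332 and 339.5 to 424, with 2 of 8 higher. The sum of 10 epithelial markers overlapped, at 11440 to 17780 and 13760 to 17000. The part of these markers in the result was not tested. With a term for Ddx3y over 10 CPM, added after the data were seen, the log2 fold change of Ppara was -1.48 (adjusted p = 0.103), that of Pdk4 -1.46 (adjusted p = 0.185), Ehhadh -1.38 (adjusted p = 0.0937) and Pparg -0.87 (adjusted p = 0.273), so no member call in BA tumours survived that term, a fit in which 1 tumour alone was under 10 CPM.

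At d30, 33 of 59 pathway genes were lower and 8 higher in BA against WT, where 29.3% and 25.8% of all genes were, with a median of -0.374 against -0.0264 for all genes. Mitochondrial beta-oxidation had 12 of 13 lower, from Eci2 at -1.00 (adjusted p = 5.84e-06) to Hadhb at -0.28 (adjusted p = 0.00629). In the test of the endpoint effect against the d30 effect, 12 of these 13 were lower at endpoint, where 6.46% of all genes were, with a median difference of -0.929 on the log2 scale against 0.0175 for all genes. Other genes were higher, among them Plin2, a lipid droplet coat, at 1.18 (adjusted p = 3.29e-05), Acsl5 at 1.22 (adjusted p = 4.23e-07) and Creb3l3 at 2.59 (adjusted p = 8.08e-05). Lpl, the lipase that ANGPTL4 inhibits, was at -1.94 (adjusted p = 3.77e-06), and Ppargc1a, the PPAR coactivator PGC-1α, at -1.59 (adjusted p = 0.000189). Epithelial markers summed to 26590 to 30740 CPM in d30 BA and 13540 to 16100 in WT, with 9 of 10 higher, and surface colonocyte markers to 28400 to 32960 and 27090 to 33360. Adipocyte, smooth muscle, fibroblast and lymphocyte markers were lower in BA without overlap. They summed to 5.11 to 19.5 against 22 to 124 CPM for adipocytes, 998 to 4137 against 5101 to 5916 for smooth muscle (6 of 8 called lower), 1213 to 1525 against 1713 to 2100 for fibroblasts (7 of 8) and 110.5 to 398 against 467 to 857 for lymphocytes (4 of 8). Macrophage, neutrophil, endothelial and small intestinal enterocyte markers overlapped, macrophage markers at 251 to 383.5 against 248 to 329. Pancreatic acinar markers were lower without overlap, at 0.121 to 0.414 against 2.1 to 6.16. The hepatocyte list was higher without overlap, at 777 to 1086 against 254 to 387. The part of these markers in these results, Lpl included, was not tested. Against d30 A, 29 of 58 were lower and 10 higher in BA, where 23.6% and 21.7% of all genes were.

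**Figure D4:**
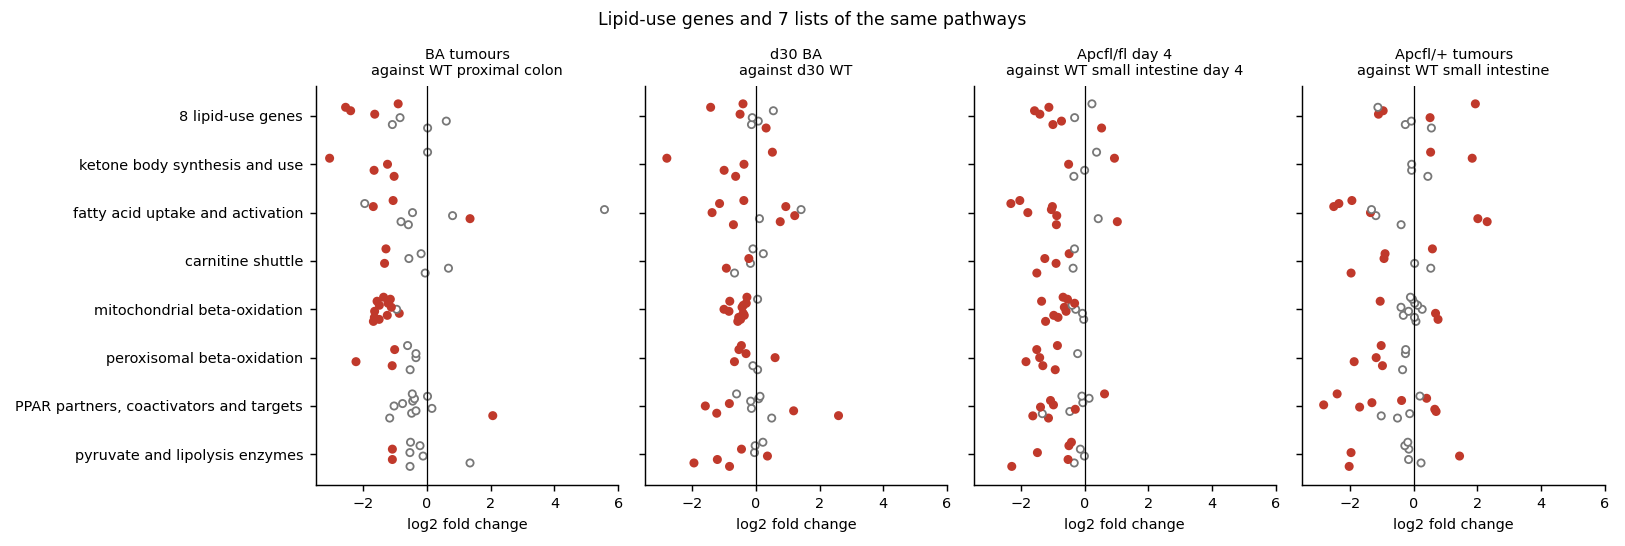
Each point is 1 gene at its edgeR log2 fold change in BA tumours, d30 BA, Apcfl/fl tissue at day 4 and Apcfl/+ tumours, each against its WT, with the 8 members in the top row and 7 lists of pathway genes under them. Filled red points have an adjusted p under 0.05. The mitochondrial beta-oxidation row lies left of 0 in both BA panels, with 12 of 13 genes called, and straddles 0 in Apcfl/+ tumours.

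With antibiotics, 7 of 58 of these genes were lower and 3 higher, near the 8.5% and 4.53% of all genes. The 13 mitochondrial enzymes had a median log2 fold change of -0.0266 and were all at or above the adjusted p of Eci2, at 0.36 (adjusted p = 0.0557). The lower genes included Acaa1b at -0.99 (adjusted p = 0.0081), Plin2 at -0.64 (adjusted p = 0.0266), Slc22a5, the carnitine importer, at -0.36 (adjusted p = 0.0126), Pdk2, a relative of Pdk4, at -0.60 (adjusted p = 0.00404) and Acsl3 at -0.38 (adjusted p = 0.0494). The higher ones included Bdh1, which interconverts ketone bodies, at 0.34 (adjusted p = 0.026) and Fabp2, a fatty acid binding protein, at 0.77 (adjusted p = 0.00361). In the 3 comparisons of A tissue, edgeR called 0 of 59 pathway genes, with 2 (A against WT), 4 (A with sulindac against WT) and 4 (A with sulindac against A) at an unadjusted p under 0.05, and neither DESeq2 nor limma with voom called any.

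In the small intestine the list is given for each model, and the difference between the models is not reported here. Apcfl/fl tissue at day 4 had 38 of 60 pathway genes lower and 3 higher, where 26.7% and 27.5% of all genes were, with Slc27a2, a fatty acid transporter, at -2.32 (adjusted p = 3e-05) and Lipe, hormone-sensitive lipase, at -2.29 (adjusted p = 3.06e-08). The enterocyte markers given beside Ehhadh, all 8 of them lower, moved with this list, and their part in it was not tested. Apcfl/+ tumours had 19 of 60 lower and 11 higher, together a smaller share than the 61.5% of all genes called, so this count is not a result about the list. Among them were Ppargc1a at -2.82 (adjusted p = 5.57e-06), Ppard, the other PPAR of the gut, at -1.70 (adjusted p = 0.000132) and Acsl3 at 2.31 (adjusted p = 4.4e-05). Mitochondrial beta-oxidation had 9 of 13 lower at day 4, and 1 lower and 2 higher in the tumours, with medians of -0.586 and 0.0271.

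Across all 53 libraries, which differ in tissue, genotype and depth, the log2 CPM of the members were alike only in part. Pearson's r was 0.839 between Cpt1a and Pparg, 0.744 between Acadm and Pdk4, 0.696 between Ehhadh and Ppara and -0.626 between Pparg and Angptl4, given as descriptions with no test. Over 23478 genes, the pattern most like each member belonged to Tmem63a for Pparg (r = 0.958), then 2610528A11Rik and Paqr5. It belonged to Pttg1ip for Acadm (0.947), then Ensa and Fbxo25, and to Gpt for Ehhadh (0.941), then Pgrmc1 and Ogdh. For Acadl it was Psmd7 (0.92), then Zcchc10 and Psmd12, and for Cpt1a Ttc38 (0.911), then Galnt4 and Nipal3. For Pdk4 it was Zbtb7b (0.876), then Kctd21 and Abcd3, for Ppara Gm11437 (0.843), then Gm45871 and Strip2, and for Angptl4 Pfkfb3 (0.815), then Sphk1 and Ifnar2.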

How the data were processed

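RNA was extracted from whole intestinal tissue, made into TruSeq RNA v2 libraries and sequenced as paired reads on a NextSeq 500. Per the labels and the submitters' processing notes, the authors used FastQC 0.11.8, Trim Galore 0.6.4, HISAT2 2.1.0 on GRCm38 and featureCounts 1.6.4, and deposited raw counts per gene for 53 libraries. The strand setting is not given in the sources used here, so reads of overlapping genes on either strand cannot be told apart. Short reads and counts per gene say nothing of isoforms.

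Samples were grouped by their labels. Each comparison was fitted on the whole table for its groups alone with edgeR 4.0.16 in R 4.3.3, using filterByExpr, TMM scaling and the quasi-likelihood F test, with Benjamini-Hochberg adjustment over all genes tested and a threshold of 0.05. Differences between effects were contrasts in fits of 4 groups. The study states that its replicates are separate animals. Levels are CPM with TMM factors over all libraries, per kilobase of the union of exons of GENCODE M21 where genes are compared. Alternatives were RLE scaling, DESeq2 1.42.0, limma 3.58.1 with voom, no filter on low counts, a replicate block, 1 fit of all 5 d30 groups, omission of single libraries, and, chosen after seeing the data, terms or subsets for Ddx3y and Gm13394. The fits were tested on simulated data.

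All 8 members are named throughout. Of the pathway genes, those named are the called genes at either extreme of fold change in their list, together with Cpt2, Plin2, Ppard and Ppargc1a, and for each member the 3 genes most correlated with it in log2 CPM. Some genes that this rule allows are not reported here. Members and lists were chosen with earlier results of these data known. Replicate numbers are not taken as pairs, since in no comparison did every pair of same-numbered samples deviate together at a correlation over 0.1.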

Additional observations from a re-analysis of the deposited data

Results flagged for a closer look

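In 4 of 72 combinations of a member and a group of 4 to 10 libraries, 1 library lay far from the others by Dixon's test, which chance alone gives in about 1 of 20. Cpt1a was 100.5 CPM in BA tumour 2, where the other tumours held 261 to 279.6. Acadm was 141.9 CPM in library 2 of A with sulindac, where the others held 167 to 169.7. Ehhadh was 76.4 CPM in d30 WT library 1, where the others held 96.9 to 100.1. Angptl4 was 69.5 CPM in library 3 of BA with antibiotics, the library with adipocyte markers at 1346 summed CPM, where the others held 1.74 to 8.39.

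The effect of 1 model or stage differed from that of another in 8 tests of an interaction by edgeR with adjustment over all genes. The BA tumour effect minus the Apcfl/+ tumour effect was -2.81 (adjusted p = 0.000105) for Pparg and -1.32 (adjusted p = 0.0169) for Cpt1a, on the log2 scale. The BA effect at endpoint minus that at d30 was -2.92 (adjusted p = 0.00303) for Pdk4, -1.14 (adjusted p = 0.00292) for Ehhadh and -0.95 (adjusted p = 0.04) for Acadm. The Apcfl/+ tumour effect minus the Apcfl/fl day 4 effect was 1.69 (adjusted p = 0.000412) for Pparg, 0.80 (adjusted p = 0.0322) for Cpt1a and 0.72 (adjusted p = 0.013) for Acadm.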

How the results depend on the processing

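Of the members' fold changes under all alternatives, 987 kept direction and side of the threshold, 53 lost and 20 gained a call, and 44 changed sign, none of them called before or after. The cause was not tested. Depth limits the values of Apcfl/fl day 4 library 1, which held 516985 reads.

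Replicate block: same-numbered samples share only a number. In BA tumours the replicate block left 2 members, 14 pathway genes and 931 genes called. It left 2 genes in A with sulindac against WT, 1 against A (where Ehhadh turned to 0.00305), 1284 with antibiotics and 8333 in Apcfl/+ tumours. With the block, Apcfl/fl at day 4 kept 4 of 6 member calls.

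DESeq2 called 3798 genes in BA tumours, 1 member and 136 genes in A, 111 and 5 genes in A with sulindac against WT and A, and 17 pathway genes with antibiotics. Without a filter, A against WT had 1 member and 72 genes, and A with sulindac 24 genes against WT and 1 against A. There Acadl turned to -0.00724, and Pparg in BA against A to 0.0146. With voom, Ehhadh turned to 0.0077 in A with sulindac against A, and Acadl to 0.0261 in the difference between Apcfl/+ and Apcfl/fl effects.

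With all 5 d30 groups in 1 fit, 1 member was called in BA against A, 29 genes in A with sulindac against WT and 1074 with antibiotics. Cpt1a and Acadl turned to -0.000392 and -0.00916 in A with sulindac against A, and Acadm to -0.00304 in BA against A.

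A term for Ddx3y left 0 members, 1 pathway gene and 168 genes in BA tumours, with Acadl at -0.32 and Angptl4 at -0.25. In Apcfl/+ tumours it left 2 members, 13 pathway genes and 7030 genes, with Angptl4 at 0.16. At day 4, libraries with Gm13394 over 10 CPM gave 5490 genes, and those under it Cpt1a at 0.14 and Pparg at -0.23.

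Without 1 library at a time, BA tumours had 3 to 5 members, 15 to 37 pathway genes and 696 to 3641 genes called, lowest without WT library 1 for the genes. A against WT had 15 to 28 genes, A with sulindac against WT 4 to 18, antibiotics 1300 to 2683, lowest without antibiotics library 5, and BA against A 2 to 4 members, highest without A library 4. Apcfl/+ tumours had 1 to 6 members, with 1 left without WT library 1 or 3 or tumour 1 or 4, 2 without WT library 2 and 6 without tumour 2. Signs changed within these ranges, all uncalled.
In BA tumours, Acadl ran from -0.0868 to 0.12. In d30 BA, Angptl4 ran from -0.0529 to 0.28, and with antibiotics from -0.60 to 1.91. In Apcfl/+ tumours, Angptl4 ran from -0.31 to 0.30. In A with sulindac against WT, Pdk4 ran from -0.0683 to 0.62. Against A, Acadl ran from -0.066 to 0.0443, Acadm from -0.0485 to 0.13, Cpt1a from -0.10 to 0.18, Ehhadh from -0.14 to 0.19, Pdk4 from -0.57 to 0.13 and Ppara from -0.0533 to 0.36. In BA against A, Acadm ran from -0.0245 to 0.15, Ehhadh from -0.26 to 0.11, Pdk4 from -0.14 to 0.33 and Pparg from -0.0865 to 0.0403.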
